A study of Mus musculus with 8 samples.

Results

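The mitochondrial transcription machinery and the MTERF family were examined as 10 nuclear genes in hearts of Lrpprc knockout mice. The set held the polymerase Polrmt, the promoter factors Tfam and Tfb2m, the rRNA methyltransferase Tfb1m and the elongation factor Tefm. It also held Mterf1a, Mterf1b, Mterf2, Mterf3 and Mterf4. The genes were listed by name and function, at a time when earlier results of these data were known, and all 10 were found among the 50599 records of each library. Total RNA of whole hearts was sequenced in 4 wildtype and 4 knockout libraries. All animals were male C57BL/6N mice of 12 weeks of age. The wildtype controls carried the loxP-flanked Lrpprc allele on both chromosomes (Lrpprc loxP/loxP). The knockouts carried the same alleles together with Cre (Lrpprc loxP/loxP,Cre+), which removed the gene in heart and skeletal muscle. The Cre driver was not given in the sources used here, nor which cells of the heart lost the gene. Cre was present only in the knockouts, so its presence and the loss of Lrpprc cannot be told apart.

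Mitochondrial DNA is transcribed from promoters in the control region on both strands, giving long transcripts that are cut into rRNAs, mRNAs and tRNAs. The polymerase POLRMT is a single-subunit enzyme related to those of bacteriophages. TFAM bends the promoter DNA and also packages the whole genome, TFB2M helps to open the promoter, and TEFM keeps the polymerase elongating. MTERF proteins bind mitochondrial nucleic acids and take part in transcription, its termination and ribosome assembly. Lrpprc, the gene removed here, encodes a protein that binds mitochondrial mRNAs.

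Of the 10 genes, 3 fell in the knockout and 0 rose. Those that fell were Polrmt, Tfb1m and Mterf2, with 0.67, 0.56 and 0.54 of the wildtype level. The other 7 did not pass the test, with log2 fold changes between -0.33 and 0.44. The test was that of DESeq2 on all genes, with Benjamini-Hochberg adjustment and a threshold of 0.05. Of the 19959 genes tested, 15.5% were called lower, 18.2% higher and 33.7% in either direction, against which the counts of 3 lower, 0 higher and 3 called of 10 are to be read. The count of 0 higher was also 0 at an unadjusted p under 0.05 and with edgeR, and edgeR called 3 lower. These counts were the same with size factors from nuclear genes, but not with every scaling between libraries. With total counts as size factors 5 were called lower and 0 higher. With total counts without mitochondrial rRNA 1 was called lower (Mterf2) and 3 higher (Tfb2m, Tefm and Mterf4). Both scalings by totals shift all genes alike. The median log2 fold change of the 10 was -0.15, beside 0.01 over all genes tested. The wildtype and knockout libraries did not overlap in 2 of the 10, Tfb1m and Mterf2, beside 33% of all genes tested. The share of the 10 genes called in either direction was thus near that of all genes.

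**Figure D1:**
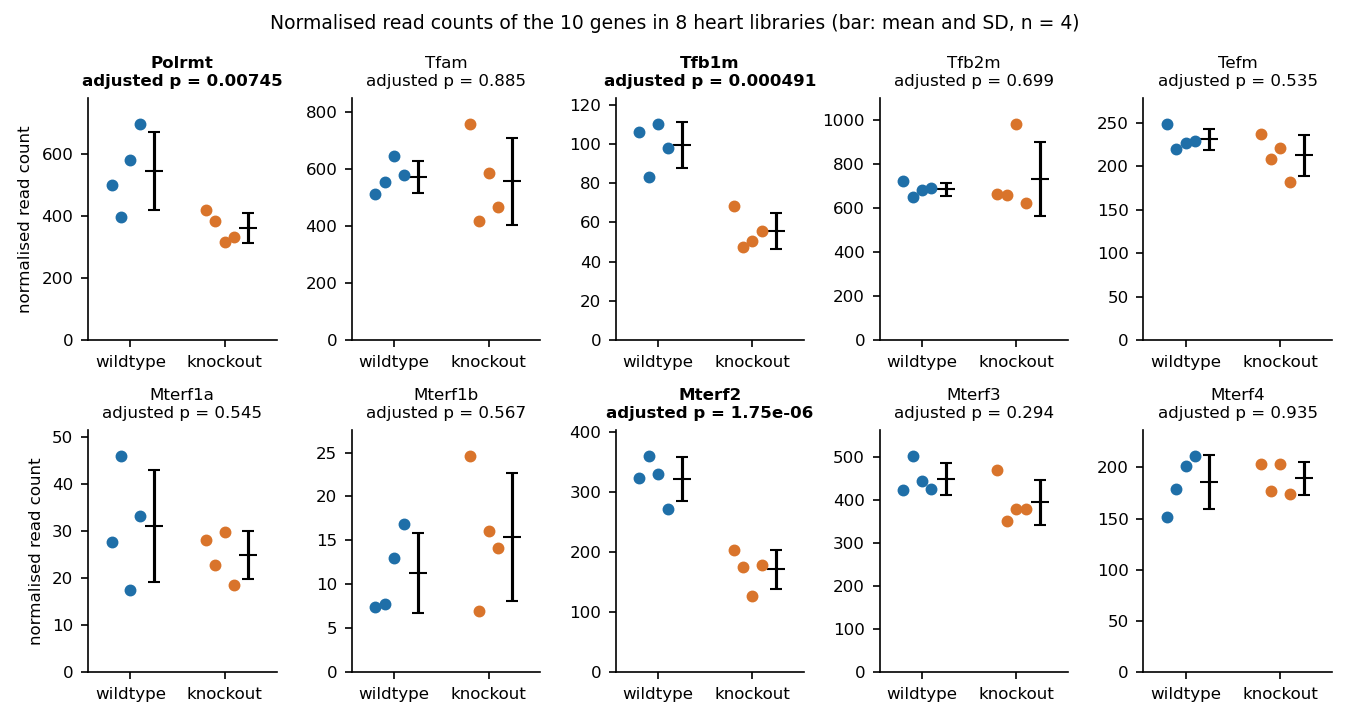
Normalised read counts (y axis, from 0) of each gene in the 4 wildtype (blue) and 4 knockout (orange) libraries, with the mean and SD as a bar beside the points and the DESeq2 adjusted p above each panel. Panels with a bold title are the 3 genes past the threshold, and only in Tfb1m and Mterf2 do all orange points lie below all blue ones.

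The libraries held between 35218541 and 47743376 expected counts, and the 10 genes together took between 2276 and 3813 of them. Lrpprc fell to 0.16 of the wildtype level (log2 fold change -2.67, SE 0.10, DESeq2 adjusted p = 3.77e-153). Mitochondrial rRNA made up 44 to 46.9% of the counts in the wildtype and 65.6 to 67.8% in the knockout. Knockout replicate 3 stood apart from the other knockouts, at 68.5 on the second principal component (15.9% of the variance) against -27.3 to -22.9. Without it the count of members called stayed at 3. Of 9 cardiomyocyte markers 7 fell and 1 rose, with a median log2 fold change of -0.87, and their summed normalised counts went from 1114616 to 1227024 in the wildtype down to 589397 to 748593 in the knockout. Of 8 fibroblast markers 4 rose (summed counts 18251 to 19005 against 19212 to 64280), and of 8 macrophage markers 6 rose (2780 to 3558 against 3096 to 7395). No endothelial, erythroid or adipose marker passed the test, while 2 of 6 smooth muscle and pericyte markers and 2 of 4 atrial markers fell. The summed atrial markers were 9980 to 12038 in the wildtype and 1268 to 6012 in the knockout. Knockout replicate 3 was the lowest knockout not only for the atrial markers but also for the fibroblast (19212), macrophage (3096), endothelial (11009 against 15182 to 16199 in the wildtype) and smooth muscle and pericyte markers (13057), and it was the highest for the cardiomyocyte (748593) and erythroid markers (53861 against 20882 to 27049 in the wildtype). No marker was at 0 in all libraries. The part of these shifts in the results on the 10 genes was not tested, and fewer cells of a type and less RNA per cell cannot be told apart in RNA of whole hearts.

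The upstream sequences of the 3 genes that fell are given here, with that of Tfb2m, the paralog of Tfb1m that did not pass the test, for contrast. Each holds the 250 bases before the RefSeq start site (GRCm38.p6), read 5′ to 3′ on the strand of the gene. They lie at chr10:79746582-79746831 for Polrmt, chr17:3557756-3558005 for Tfb1m, chr10:85128028-85128277 for Mterf2 and chr1:179546277-179546526 for Tfb2m, all on the minus strand. Capitals mark matches on either strand to 3 short motifs that do not overlap one another in these windows, TGCGCA (the core of the NRF1 site), CCGGAAG (the core bound by ETS factors such as GABP) and GGGCGG (the core of the SP1 site).
Polrmt: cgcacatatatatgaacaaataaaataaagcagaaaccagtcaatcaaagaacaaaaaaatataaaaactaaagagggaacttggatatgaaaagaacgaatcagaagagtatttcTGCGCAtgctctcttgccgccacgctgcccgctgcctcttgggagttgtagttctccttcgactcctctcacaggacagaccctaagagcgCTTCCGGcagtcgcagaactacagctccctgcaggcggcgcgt
Tfb1m: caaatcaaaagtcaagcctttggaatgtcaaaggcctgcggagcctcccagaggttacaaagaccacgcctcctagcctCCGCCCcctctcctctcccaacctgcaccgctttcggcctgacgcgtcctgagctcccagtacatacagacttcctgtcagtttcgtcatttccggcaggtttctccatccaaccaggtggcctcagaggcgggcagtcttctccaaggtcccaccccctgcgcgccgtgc
Mterf2: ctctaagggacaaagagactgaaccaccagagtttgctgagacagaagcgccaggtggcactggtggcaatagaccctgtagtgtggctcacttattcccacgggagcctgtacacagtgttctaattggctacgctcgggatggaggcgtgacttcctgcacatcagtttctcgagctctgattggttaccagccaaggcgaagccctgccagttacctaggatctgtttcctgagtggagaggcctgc
Tfb2m: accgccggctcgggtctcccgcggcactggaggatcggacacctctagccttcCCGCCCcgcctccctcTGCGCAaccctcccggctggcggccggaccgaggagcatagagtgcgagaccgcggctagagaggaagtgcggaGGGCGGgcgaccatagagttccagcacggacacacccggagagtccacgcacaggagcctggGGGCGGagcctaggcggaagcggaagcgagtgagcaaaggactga
The Polrmt window held 1 NRF1 core, whose first base lay 134 bases before the start, and 1 ETS core at 43 bases. Tfb1m held only an SP1 core at 171 bases, and Mterf2 held none of the 3 motifs. Tfb2m held an NRF1 core at 181 bases and SP1 cores at 197, 107 and 45 bases. Across the 9 members with a window (none was given for Mterf3), 2 held the NRF1 core, 5 the ETS core and 5 the SP1 core. Mterf1a and Mterf1b, whose windows are near-identical, both count among these 5 and 5. Of all 32851 windows of the same length, 6.43% held the NRF1 core, 6.91% the ETS core and 32.7% the SP1 core. The genes that fell thus shared no exact match to any of the 3 motifs. Sites that differ from these letters, or lie outside the windows, were not searched for. These matches describe letters in the sequence and were not tested for binding.

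Polrmt (ENSMUSG00000020329.12, chromosome 10 from 79736123 to 79746581, minus strand, GRCm38) encodes the polymerase, which also makes the primers for replication of mitochondrial DNA. Its normalised read counts, scaled by library and by effective length, were 501, 398, 582 and 697 in the wildtype and 419, 384, 315 and 331 in the knockout, each in the order of replicates 1 to 4 as in all such lists here. The wildtype libraries were spread widely, and wildtype replicate 2 lay inside the knockout range. The means were 544 ± 126 (SD, n = 4) and 362 ± 47.9 (SD, n = 4). Polrmt fell by 0.59 on the log2 scale (SE 0.19, 95% interval -0.96 to -0.22, DESeq2 adjusted p = 0.00745), and edgeR gave -0.61 with an adjusted p of 0.0175. The call rested on wildtype replicate 4, the highest library: without it the log2 fold change was -0.445 (DESeq2 adjusted p = 0.0544). The call was also lost with total counts without mitochondrial rRNA, at -0.159 (DESeq2 adjusted p = 0.55). Without the effective length as an offset the value was -0.35 (DESeq2 adjusted p = 0.0155). The length that RSEM gave Polrmt, its transcripts weighted by abundance, ranged from 1988 to 3193 bases between libraries, and was longest in wildtype replicate 2, where the normalised count was the lowest of the wildtype. It rested on 428 to 682 raw expected counts in the wildtype and 296 to 427 in the knockout.

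Of the promoter factors, Tfam (ENSMUSG00000003923.14, chromosome 10 from 71225464 to 71238280, minus strand) had normalised read counts of 512, 556, 645 and 579 in the wildtype and 758, 416, 585 and 467 in the knockout. Knockout replicate 1 was above and knockout replicates 2 and 4 were below every wildtype library. The means were 573 ± 55.5 (SD, n = 4) and 557 ± 152 (SD, n = 4), and the log2 fold change was -0.05 (95% interval -0.42 to 0.33, DESeq2 adjusted p = 0.885). That p does not show that a change in Tfam mRNA was absent, and the interval holds for this scaling only, the value being -0.355 with total counts (DESeq2 adjusted p = 0.0921) and 0.373 with total counts without mitochondrial rRNA (DESeq2 adjusted p = 0.0854).

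Tfb1m (ENSMUSG00000036983.6, chromosome 17 from 3519256 to 3557781, minus strand) encodes a methyltransferase related to TFB2M, which dimethylates adenines near the end of the small mitochondrial rRNA. It had normalised read counts of 106, 83.2, 110 and 98.0 in the wildtype and 68.2, 47.4, 50.7 and 55.5 in the knockout. Every knockout library lay below every wildtype library. The means were 99.3 ± 11.9 (SD, n = 4) and 55.4 ± 9.11 (SD, n = 4). Tfb1m fell by 0.84 on the log2 scale (SE 0.21, 95% interval -1.26 to -0.42, DESeq2 adjusted p = 0.000491), with -0.86 and an adjusted p of 0.00397 by edgeR. It was the least abundant of the called genes, with 86 to 127 raw counts in the wildtype and 41 to 61 in the knockout. The files listed 1 transcript for it, so that its length did not vary. Leaving out single libraries gave values between -0.95 and -0.77, all past the threshold of DESeq2, but with total counts without mitochondrial rRNA the value was -0.415 and the call was lost (DESeq2 adjusted p = 0.105).

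Tfb2m (ENSMUSG00000026492.11, chromosome 1 from 179528055 to 179546267, minus strand) encodes the factor that opens the promoter. Its normalised read counts were 720, 648, 680 and 692 in the wildtype and 663, 661, 981 and 623 in the knockout. Knockout replicate 3 lay above all other libraries, whereas the remaining knockouts were at or near the wildtype range. The log2 fold change was 0.09 (SE 0.16, 95% interval -0.22 to 0.41, DESeq2 adjusted p = 0.699). Leaving out that library gave -0.08 (DESeq2 adjusted p = 0.569), total counts gave -0.214 (DESeq2 adjusted p = 0.193), and total counts without mitochondrial rRNA gave 0.508, called higher (DESeq2 adjusted p = 0.000456). The ratio of Tfb2m to Tfb1m, as normalised counts per kb, was 3.82 on average in the wildtype (3.39 to 4.27) and 7.45 in the knockout (5.34 to 10.6). Thus the balance of the paralogs lay higher in every knockout library, a comparison chosen after the values were seen and given without a test. A pseudogene record, Gm1818, matched Tfb2m transcripts at 99.3% identity over 1187 bases and had 0 counts in all libraries.

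Tefm (ENSMUSG00000046909.9, chromosome 11 from 80136678 to 80142175, minus strand), the elongation factor, had normalised read counts of 249, 220, 227 and 229 in the wildtype and 237, 209, 221 and 182 in the knockout. Its groups overlapped, and the log2 fold change was -0.12 (SE 0.14, 95% interval -0.39 to 0.15, DESeq2 adjusted p = 0.535). Tefm was called lower with total counts (-0.423, DESeq2 adjusted p = 0.00337) and higher with total counts without mitochondrial rRNA (0.30, DESeq2 adjusted p = 0.0459).

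**Figure D2:**
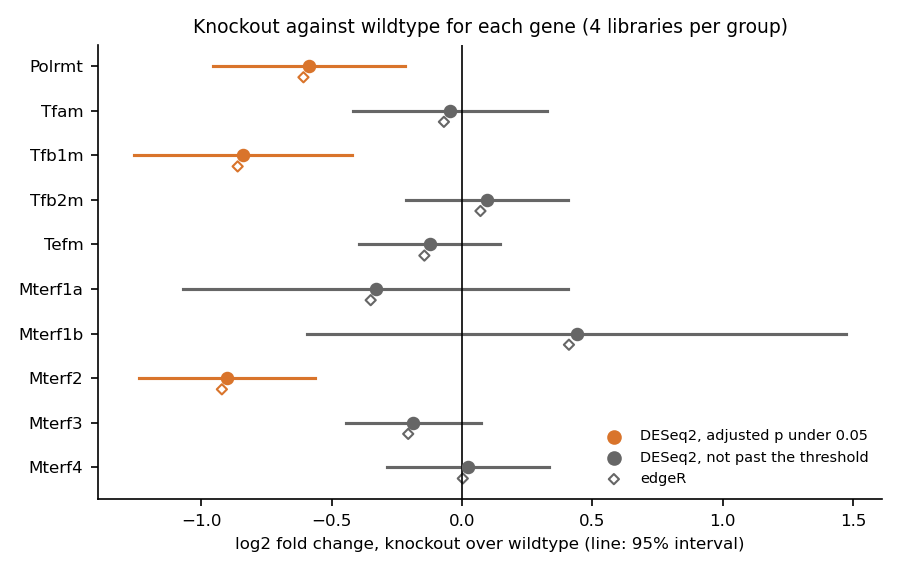
Log2 fold change of each gene, knockout over wildtype (x axis), by DESeq2 with its 95% interval (circle and line) and by edgeR (diamond), from 4 libraries per group. Polrmt, Tfb1m and Mterf2, in orange, have intervals wholly below 0, while the intervals of the 7 genes in grey include 0 and are widest for Mterf1a and Mterf1b.

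In the MTERF family, Mterf2 (ENSMUSG00000049038.3, chromosome 10 from 85119433 to 85128027, minus strand) showed the largest change of the 10 genes among those called. It encodes a protein that binds mitochondrial DNA. Its normalised read counts were 323, 359, 329 and 271 in the wildtype and 203, 175, 127 and 178 in the knockout. Every knockout library lay below every wildtype library, and knockout replicate 3 was the lowest. The means were 321 ± 36.5 (SD, n = 4) and 171 ± 31.8 (SD, n = 4). Mterf2 fell by 0.90 on the log2 scale (SE 0.17, 95% interval -1.24 to -0.56, DESeq2 adjusted p = 1.75e-06), with -0.92 and an adjusted p of 0.00121 by edgeR. With that library left out the value was -0.79 (DESeq2 adjusted p = 2.26e-06), the one nearest to 0 when single libraries were left out. With total counts without mitochondrial rRNA it was -0.47 and still called lower (DESeq2 adjusted p = 0.0283).

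Mterf3 (ENSMUSG00000021519.10, chromosome 13 from 66906968 to 66933088, minus strand) encodes a factor known to restrain transcription initiation. Its normalised read counts were 424, 503, 445 and 426 in the wildtype and 471, 352, 379 and 379 in the knockout. All knockouts but replicate 1 lay below the wildtype, yet the log2 fold change of -0.19 (SE 0.13, 95% interval -0.45 to 0.07) did not pass the test (DESeq2 adjusted p = 0.294). With total counts Mterf3 was called lower (-0.485, DESeq2 adjusted p = 0.00135), and without mitochondrial rRNA in the totals it was at 0.239 (DESeq2 adjusted p = 0.135). Mterf4 (ENSMUSG00000026273.13, chromosome 1 from 93299211 to 93305915, minus strand), whose product brings the methyltransferase NSUN4 to the large mitochondrial ribosomal subunit, had 152, 179, 201 and 211 normalised counts in the wildtype and 203, 177, 203 and 175 in the knockout. The groups of Mterf4 overlapped throughout (log2 fold change 0.02, 95% interval -0.29 to 0.33, DESeq2 adjusted p = 0.935), but Mterf4 was at -0.276 with total counts (DESeq2 adjusted p = 0.133) and was called higher, at 0.445, with total counts without mitochondrial rRNA (DESeq2 adjusted p = 0.00949).

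Mterf1a (ENSMUSG00000040429.6, chromosome 5 from 3890581 to 3893933, minus strand) and Mterf1b (ENSMUSG00000053178.5, chromosome 5 from 4192367 to 4197651, plus strand) are the mouse copies of MTERF1, which binds within a leucine tRNA gene downstream of the rRNAs. Their transcripts Mterf1a-201 and Mterf1b-201 were identical at 98.6% of 1368 aligned bases. Of all 100-base windows of Mterf1b 43.5% occurred unchanged in Mterf1a, so the division of reads between the copies is uncertain. Upstream of the starts, outside the transcripts, 241 of 243 aligned bases were identical. Mterf1a had normalised read counts of 27.6, 45.9, 17.5 and 33.1 in the wildtype and 28.2, 22.8, 29.7 and 18.6 in the knockout. Mterf1b had 7.42, 7.74, 13.01 and 16.9 in the wildtype and 24.6, 6.94, 16.1 and 14.1 in the knockout. These were the least abundant members, and Mterf1b took between 14.5 and 47.5% of the reads of both. The log2 fold changes, -0.33 for Mterf1a and 0.44 for Mterf1b, had standard errors of 0.38 and 0.53 and did not pass the test (DESeq2 adjusted p = 0.545 and 0.567). Leaving out single libraries moved them between -0.535 and -0.0841 and between 0.129 and 0.708. Mterf1a was at -0.148 without the length offset and at -0.634 with total counts (DESeq2 adjusted p = 0.795 and 0.168). Mterf1b was at 0.137 with total counts and at 0.86 with total counts without mitochondrial rRNA (DESeq2 adjusted p = 0.863 and 0.18). With the copies summed per library the log2 fold change was -0.06 (95% interval -0.69 to 0.57, DESeq2 adjusted p = 0.913), with means of 42.1 ± 10.6 (SD, n = 4) and 40.9 ± 12.2 (SD, n = 4). A change of the summed copies within that interval is not excluded by these data.

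To compare the genes with each other, normalised counts were divided by the effective length and given per kb. In the wildtype the order of the mean levels per kb was Mterf3 (440), Tfam (393), Tfb2m (324), Mterf2 (286), Polrmt (235), Tefm (214), Mterf4 (133), Tfb1m (85.5), Mterf1a (20.3) and Mterf1b (9.36). Neighbours whose library ranges overlapped were Mterf3 and Tfam, Tfb2m and Mterf2, Mterf2 and Polrmt, Polrmt and Tefm, and Mterf1a and Mterf1b. In the knockout Mterf3 (387), Tfam (382) and Tfb2m (346) were still the highest and were not separated from one another. Tefm (197) then stood above Polrmt (156) and Mterf2 (153), with ranges that overlapped between neighbours. Mterf4 was at 136 per kb, Tfb1m at 47.7, Mterf1a at 16.2 and Mterf1b at 12.8. Within the MTERF family, the level of Mterf3 was on average 1.55 times that of Mterf2 in the wildtype (1.44 to 1.73) and 2.59 times in the knockout (2.20 to 3.27), which like the ratio of the TFB paralogs was chosen after the values were seen and was not tested. The level of Tfam was 1.73 times that of Polrmt in the wildtype (1.32 to 2.22) and 2.45 times in the knockout (1.72 to 2.95), and these ranges overlapped.

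**Figure D3:**
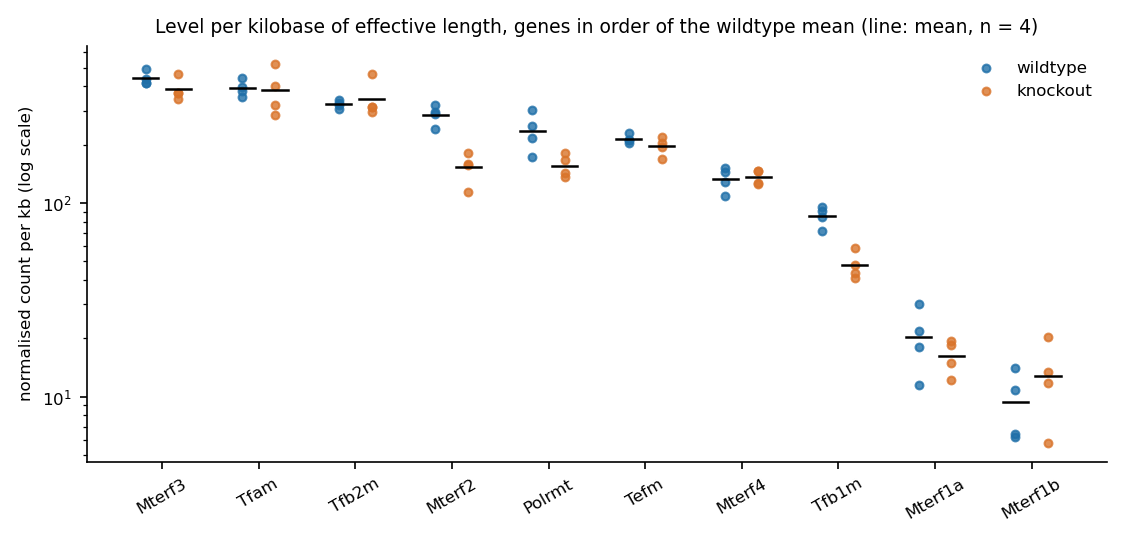
Normalised count per kb of effective length (y axis, log scale) of each gene in wildtype (blue) and knockout (orange) libraries, with the mean of 4 as a line and genes in order of the wildtype mean. Mterf3, Tfam and Tfb2m are highest in both groups, and Mterf2 moves from 286 to 153 per kb.

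The log2 ratio of each of the other 9 genes to Polrmt within a library does not depend on the scaling between libraries. None of the 9 ratios passed 0.05 after Benjamini-Hochberg adjustment (exact permutation test over 70 assignments, two-sided, smallest adjusted p = 0.193). The design could hardly give another outcome, since a single ratio can reach an unadjusted p of 0.0286 at best and on its own an adjusted p of 0.257, and 6 ratios would have to reach that minimum together. The ratio of Mterf4 to Polrmt was the only 1 without overlap, with wildtype and knockout means of -0.80 ± 0.27 (SD, n = 4) and -0.20 ± 0.21 (SD, n = 4) on the log2 scale (exact permutation test, unadjusted p = 0.0286). For Tfb1m and Mterf2, which fell like Polrmt, the ratio was lower in the knockout by -0.27 and -0.35 on the log2 scale (exact permutation test, unadjusted p = 0.2 and 0.257). Without the length term the difference of Mterf4 was 0.332 instead of 0.602, and those of Tfb1m and Mterf2 were -0.48 and -0.715, and with single libraries left out they ranged from -0.40 to -0.167 for Tfb1m and, without wildtype replicate 4 and 2, from -0.554 to -0.15 for Mterf2. These p-values do not show that the 3 genes fell alike.

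The mix of transcripts was read from the abundance-weighted length, which varied in 8 of the 10 genes. None of the 8 lengths passed 0.05 (exact permutation test, two-sided, smallest Benjamini-Hochberg adjusted p = 0.594), in a design where a single length on its own can reach an adjusted p of 0.229 at best. Polrmt averaged 2364 ± 566 bases (SD, n = 4) in wildtype hearts against 2666 ± 235 (SD, n = 4) in knockout hearts. Wildtype replicate 2 was the longest of all, at 3193 bases, while the other wildtypes (1988 to 2261) were shorter than every knockout (2409 to 2976). The difference of 302 bases became 578 without wildtype replicate 2 (exact permutation test, adjusted p = 0.229), 186 without wildtype replicate 3, 177 without wildtype replicate 4 and 199 without knockout replicate 4. Tfam averaged 1618 ± 143 bases (SD, n = 4) and 1662 ± 314 (SD, n = 4), and its shortest and longest values, 1275 and 2024 bases, were both in knockout libraries. Mterf2 averaged 1348 ± 73.5 bases (SD, n = 4) and 1232 ± 127 (SD, n = 4). For each of the 8 genes the range among libraries of 1 genotype exceeded the difference between the group means.

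The 3 genes of at least 100 normalised counts whose profiles over the 8 libraries came nearest to a member were found among 10440 candidates by the root-mean-square difference of log2 counts centred on the wildtype mean. Nearest to Polrmt were Zfand6 (0.13), Zfp931 (0.15) and Irgm1 (0.16). Nearest to Tfam were Kti12 (0.08), Snrpd3 (0.10) and Ahsa1 (0.11), and among those nearest to Mterf2 were Gmpr (0.10) and Pcdhga9 (0.10). These distances describe 8 libraries that differ mainly by genotype.

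Genes that act with the machinery were taken as 4 lists, 51 genes in all, of which 9 rose and 11 fell. Over all genes tested 18.2% were called higher and 15.5% lower, and the counts of each list are to be read beside these shares. Among the regulators, transcription factors and coactivators of nuclear genes for mitochondria, 0 of 13 rose and 6 fell, with a median log2 fold change of -0.29. The count of 0 higher was also 0 by edgeR and at an unadjusted p under 0.05. The coactivator Ppargc1b fell by 1.0 on the log2 scale (SE 0.19, DESeq2 adjusted p = 2.11e-06), from 679 ± 121 to 340 ± 69.9 (SD, n = 4 each). Ppara, a nuclear receptor for fatty acid oxidation genes, fell by 0.95 (SE 0.16, DESeq2 adjusted p = 1.31e-08), and the coactivator Ppargc1a fell by 0.63 (SE 0.20, DESeq2 adjusted p = 0.00573). Of the factors whose motifs were searched above, the ETS factor subunit Gabpa was called lower, at -0.29 (SE 0.10, DESeq2 adjusted p = 0.0148), and its partner Gabpb2 likewise (-0.29, SE 0.11, DESeq2 adjusted p = 0.0251), but with total counts without mitochondrial rRNA they were at 0.128 and 0.142. The call of Gabpa was lost without wildtype replicate 1 or 4 or knockout replicate 2 or 4 (DESeq2 adjusted p from 0.0677 to 0.0786). Gabpb1, the other partner, was not called (-0.22, 95% interval -0.52 to 0.08, DESeq2 adjusted p = 0.277) but was with total counts (-0.514, DESeq2 adjusted p = 0.00275). The call of Gabpb2 was lost without any 1 of the wildtype libraries (0.0506 to 0.0999) and without the length offset (-0.22, DESeq2 adjusted p = 0.122). Nrf1 was at -0.09 (95% interval -0.49 to 0.31, DESeq2 adjusted p = 0.781) and Sp1 at -0.002 (95% interval -0.26 to 0.26, DESeq2 adjusted p = 0.993), and neither was called, but Sp1 was called higher with total counts without mitochondrial rRNA (0.42, DESeq2 adjusted p = 0.00247).

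Among 12 genes of the nucleoid and of replication, 1 rose and 2 fell, with a median of 0.06. Mgme1, a nuclease that trims replicating mitochondrial DNA, fell by 1.01 (SE 0.16, DESeq2 adjusted p = 2.05e-09), and the helicase Twnk fell by 0.64 (SE 0.16, DESeq2 adjusted p = 0.000343). Atad3a, a membrane protein linked to nucleoids, rose by 0.62 (SE 0.17, DESeq2 adjusted p = 0.00104). Among 20 genes of transcript processing and turnover, 5 rose and 2 fell, with a median of 0.07. Rexo2, an exonuclease of short RNAs, rose by 0.88 (SE 0.10, DESeq2 adjusted p = 1.07e-15) and Elac2, which cuts the 3′ ends of tRNAs, by 0.85 (SE 0.13, DESeq2 adjusted p = 3.16e-09), whereas Fastkd1, of the FASTK family of mitochondrial RNA-binding proteins, fell by 0.82 (SE 0.14, DESeq2 adjusted p = 8.55e-08).

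Of 6 partners of the members, 3 rose and 1 fell, with a median of 0.07. Lonp1, the protease that degrades TFAM, had 2100, 2054, 2102 and 2107 normalised counts in the wildtype and 7804, 7043, 9008 and 8009 in the knockout. It rose by 1.93 on the log2 scale (SE 0.10, DESeq2 adjusted p = 5e-87), the largest change in these lists, beside the interval of -0.42 to 0.33 for Tfam mRNA. Clpx, a chaperone of the matrix protease ClpXP, rose by 0.68 (SE 0.20, DESeq2 adjusted p = 0.0026). Knockout replicate 3, at 3472 normalised counts against 1800 to 2115 in the other knockouts, carried part of this, and without it the value was 0.427 (DESeq2 adjusted p = 3.06e-05). Mrps12, a protein of the small mitochondrial ribosomal subunit, fell by 0.42 (SE 0.15, DESeq2 adjusted p = 0.0158), a call lost when any of 4 of the 8 libraries was left out (wildtype replicate 3 or 4, knockout replicate 2 or 4), with values from -0.392 to -0.346 and DESeq2 adjusted p from 0.0702 to 0.0786, and with total counts without mitochondrial rRNA Mrps12 was at 0.00267. Under that scaling the calls of Ppargc1a (-0.218, DESeq2 adjusted p = 0.366) and Twnk (-0.214, DESeq2 adjusted p = 0.265) were also lost, as were those of Atad3a (0.311, DESeq2 adjusted p = 0.0544) and Clpx (0.367, DESeq2 adjusted p = 0.084) with total counts.

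How many of the 10 genes were called changed when libraries were scaled to total counts. With size factors from nuclear genes, with edgeR and TMM, and without the length offset, 3 were called lower and 0 higher. These were Polrmt, Tfb1m and Mterf2, as in the fit above. The median of all genes was then at 0.00474, -0.01 and 0.002. With total counts as size factors the median of all genes moved to -0.30, and Polrmt, Tfb1m, Tefm, Mterf2 and Mterf3 were called lower. With the mitochondrial rRNA removed from those totals the median moved to 0.43, Mterf2 alone was called lower, and Tfb2m, Tefm and Mterf4 were called higher. Over all genes, 46.1% of the calls were lower in the fit above, 75.4% with total counts and 12.3% with total counts without mitochondrial rRNA. Relative to the median of all genes, Polrmt was at -0.59, -0.58 and -0.59 under these 3 scalings, Tfb1m at -0.85, -0.84 and -0.85, and Mterf2 at -0.91, -0.90 and -0.90, which follows from the construction, since a size factor shifts all genes of a library alike. The direction of Polrmt, Tfb1m and Mterf2 was the same under every scaling tried. Of the 7 other genes, 6 changed sign with total counts or with total counts without mitochondrial rRNA. That contrast also follows from the shift, which turns the sign of values near enough to 0 in the fit above. Tfb2m and Mterf4 were below 0 with total counts, and Tfam (0.373), Tefm (0.30), Mterf1a (0.0902) and Mterf3 (0.239) were above 0 with total counts without mitochondrial rRNA.

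**Figure D4:**
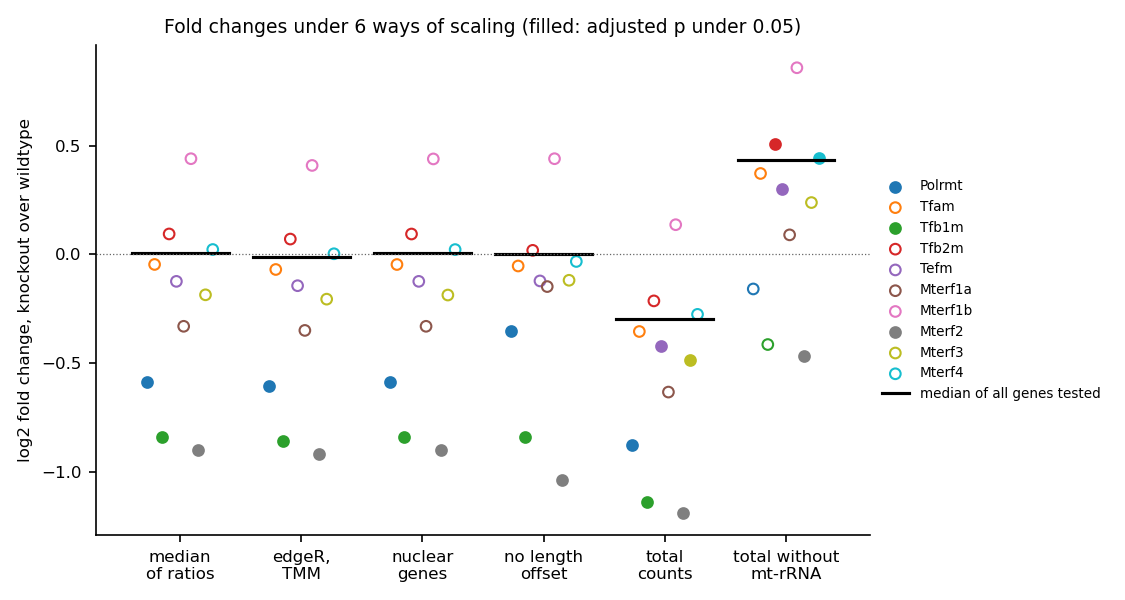
Log2 fold change of each gene, knockout over wildtype (y axis), under 6 ways of scaling, with filled points for adjusted p under 0.05 and a black line for the median of all genes tested. The median moves to -0.30 with total counts and 0.43 with total counts without mitochondrial rRNA, and the points move with it by construction.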

How the data were processed

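Total RNA of 8 mouse hearts, 4 wildtype and 4 knockout by the titles of the samples, was sequenced by the authors as paired ends, after cytoplasmic rRNA had been depleted and cDNA primed with random hexamers. The authors made the deposited expected counts with RSEM 1.2.31 and bowtie2, with reverse strandedness, against GENCODE M13 transcripts and their own mitochondrial records with 50 added adenines, on the mouse build mm10. Reads that match several genes are split among them by RSEM, which is why a count can be fractional. The deposited length and effective length are other values of RSEM in bases, with a gene's transcripts weighted by abundance. Also deposited were a table of normalised counts, whose 8 columns name no sample, and a table of the authors' own log2 fold changes and p-values, and neither was used.

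Expected counts were rounded and fitted with DESeq2 1.42.0 in R 4.3.3 on all 50599 records, on genotype alone. Size factors came from the median of ratios, with effective length as an offset and no shrinkage. The authors also used tximport and DESeq2 (1.16.1, per the submitters' processing notes), but their methods state no formula, offset or shrinkage. Effective lengths of 0 were set to 1 in 2787 records. Adjusted p-values were taken over all genes with a threshold of 0.05, and intervals are Wald intervals. edgeR 4.0.16 with TMM was the alternative tool, and both were tested on simulated data with 200 changed genes. Ratios and lengths were compared by exact permutation over 70 assignments, with a pseudocount of 1 before logarithms of ratios. Symbols and coordinates came from GENCODE M21 (50339 of 50563 Ensembl identifiers matched), Prorp through a RefSeq synonym, and upstream sequences from RefSeq (GRCm38.p6). Copies were searched with blastn 2.17.0 at 95% identity over 200 bases. Genes overlapping Tfb1m, Tfb2m, Mterf2, Mterf3 and Mterf4 lie on the opposite strand, and counting was stated to use strand.

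The members, gene lists and marker lists were chosen with earlier results of these data known. Named were all members, Lrpprc, the 3 largest changes past the threshold in each of 4 related lists, and the 3 genes with the nearest profile to each of Polrmt, Tfam and the member with the largest change, of which 1 is not reported here. Nrf1, Gabpa, Gabpb1, Gabpb2, Sp1, Gm1818 and mt-7s were named after their values were seen. The alternatives were edgeR, no length offset, a minimum of 10 counts in 4 libraries, no independent filtering, size factors from nuclear genes or total counts (also without mitochondrial rRNA), the replicate number as a block, each library left out in turn, summed Mterf1 copies, other pseudocounts and effective length. Depth was 35218541 to 47743376 counts per library. Replicates differed by more than sampling noise (lowest chi-square per degree of freedom 4.4), and each counted as 1 sample. Nothing in the labels says whether libraries of a group came from separate litters. The p-values set the difference between the groups against the variation among these libraries, and do not cover litters or batches.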

Additional observations from a re-analysis of the deposited data

Results flagged for a closer look

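Of 90 groups of 4 libraries examined, 8 had 1 library far from the other 3, and chance alone gives about 1 in 20 such groups. Tfb2m was at 980.5 normalised counts in knockout replicate 3 against 623.2 to 663.2 in the other knockouts. In the same library the log2 ratio of Tefm to Polrmt was 0.60 against 0.23 to 0.29, and the abundance-weighted length of Tefm was 1159 bases against 1267 to 1282. The ratio is taken per kb of effective length, so these flags on Tefm are not independent. Polrmt, the other term of the ratio, was at its lowest in this library (315.2 normalised counts). Knockout replicate 3 is the library that also stood apart on the second principal component. It was the lowest or highest knockout for every set of cell type markers. The part of this in these values was not tested. In knockout replicate 2 the log2 ratio of Tfb1m to Polrmt was -1.99 against -1.61 to -1.56, and Lrpprc was at 504.3 normalised counts against 597.4 to 605.4. Lonp1 was at 2054 normalised counts in wildtype replicate 2 against 2100 to 2107 in the other wildtypes, a gap that is wide only beside the narrow spread of these 3. Gabpb2 was at 514.8 normalised counts in knockout replicate 3 against 624.3 to 644.7 in the other knockouts, and Sp1 was at 1035 in wildtype replicate 1 against 1130 to 1139 in the other wildtypes.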

How the results depend on the processing

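Lrpprc and the direction of Polrmt, Tfb1m and Mterf2 held under every alternative tried. The count of members called moved to 5, all lower, with total counts as size factors, and with total counts without mitochondrial rRNA it became 1 lower and 3 higher, with 33 rather than 20 genes called in the related lists. These size factors shift all genes alike. With total counts Tfb2m was at -0.21 and Mterf4 at -0.28. With total counts without mitochondrial rRNA Tfam was at 0.37, Tefm at 0.30, Mterf1a at 0.0902, Mterf3 at 0.24, Mrps12 at 0.00267, Nrf1 at 0.321, Gabpa at 0.128, Gabpb1 at 0.205, Gabpb2 at 0.142 and Sp1 at 0.42, the last of these called higher. Mterf4 was at -0.0324 without the length offset and the difference in Tefm length at -0.963 bases in effective length, and the cause of these sign changes near 0 was not tested. Mterf1a and Mterf1b summed, most of whose reads are Mterf1a, were at -0.0602 against 0.44 for Mterf1b alone. With libraries left out in turn, 2 or 3 members were called, Polrmt being lost without wildtype replicate 4. The log2 fold changes then ranged from -0.228 to 0.073 for Tfam, -0.079 to 0.166 for Tfb2m, -0.0637 to 0.0908 for Mterf4, -0.302 to 0.0452 for Nrf1 and -0.0768 to 0.0919 for Sp1, and the length differences from -12.5 to 28.7 bases for Tefm, -76.8 to 173 bases for Tfam and -8.61 to 95.7 bases for Mterf3. The labels do not say whether replicate numbers pair the samples. Correlations of same-numbered deviations were -0.0136, -0.0436, -0.0735 and 0.0723, with 1 of 4 knockout libraries nearest to its own number. These values cannot exclude a pairing. With the replicate block 3 members were still called, Polrmt at -0.57 (DESeq2 adjusted p = 0.0278), while the calls of Gabpa (-0.296, DESeq2 adjusted p = 0.06) and Gabpb2 (-0.293, DESeq2 adjusted p = 0.111) were lost, and 5525 rather than 6728 of all genes. The depth limits Mterf1a and Mterf1b most, with 6.22 to 44.47 counts per library.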

Other observations

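The mitochondrial record mt-7s, which bears the name of the short 7S RNA made from the light-strand promoter, was counted in every library. Its normalised counts were 45.8, 61.8, 36.6 and 48.2 in the wildtype and 50.5, 53.1, 49.7 and 46.6 in the knockout. All knockout values lay inside the wildtype range, and the log2 fold change was 0.06 (SE 0.25, 95% interval -0.44 to 0.55, DESeq2 adjusted p = 0.897). The record is short and rests on 41 to 64 raw counts per library. The 10 nuclear genes together took 179 to 192 CPM of the nuclear counts in the wildtype and 173 to 196 in the knockout, so that their summed share overlapped between the groups while 3 of them fell.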
